A study of Mus musculus with 6 samples.

Results

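Oxidative phosphorylation is carried out by 5 protein complexes of the inner mitochondrial membrane, and the nuclear-encoded subunits of these complexes were compared between crypts of CSN8ΔIEC and CSN8fl/fl mice. Members were chosen by gene symbol alone, as every gene on the array whose symbol begins like that of a complex I, II, III, IV or V subunit or of cytochrome c. The rule found 90 of the 19505 genes, each measured by 1 probe set. They were 34 subunits of complex I (6 core and 28 accessory), 4 of complex II, 9 of complex III, cytochrome c itself, 18 of complex IV and 17 of complex V. The other 7 matched the rule without being a subunit of a complex: the complex II assembly factors Sdhaf1 to Sdhaf4, and Cox7a2l, Ndufa4l2 and Ndufb4b, which are paralogues of subunits.

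Complexes I and II pass electrons from NADH and succinate to ubiquinone, complex III passes them on to cytochrome c, and complex IV, cytochrome c oxidase, passes them to oxygen. Complexes I, III and IV pump protons, and complex V, the ATP synthase, uses the proton gradient to make ATP. Complexes I, III, IV and V also contain subunits encoded by mitochondrial DNA, which were not analysed here, whereas all of complex II is encoded in the nucleus. In the intestinal epithelium, absorptive cells and crypt cells differ in how far they rely on mitochondrial respiration or on glycolysis.

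Crypts of the small intestine came from C57BL/6 mice, 3 samples per genotype, and the total RNA of each was measured on 1 Affymetrix array. The study asked whether loss of CSN8 alters antimicrobial peptide production. CSN8fl/fl mice carry loxP-flanked copies of Cops8, the gene of a COP9 signalosome subunit. The name CSN8ΔIEC was read as its loss from intestinal epithelial cells, with the Cre promoter not given in the sources used here. Replicates 1 and 2 of each genotype were labelled females of 16 weeks, and replicate 3 a male of 10 weeks. The labels call the samples biological replicates without saying that each came from its own mouse, so p-values cover no more than the spread among these samples, which may be technical in part.

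Values are log2 signals, so that a difference of 1 is a 2-fold change. The Cops8 signal, for replicates 1 to 3, was 8.26, 8.22 and 8.10 in CSN8fl/fl and 7.68, 7.61 and 7.77 in CSN8ΔIEC, a log2 difference of −0.50 ± 0.11 (SE) that did not pass the threshold (limma, adjusted p = 0.0865). The position of its probes relative to the deletion was not checked. The Y-linked gene Uty went against the sex labels: its signal was 8.85, 8.87 and 3.3 in CSN8fl/fl and 8.73, 8.47 and 3.21 in CSN8ΔIEC, high in the libraries labelled female and low in those labelled male. Sex is therefore given as labelled throughout. CSN8fl/fl replicate 3 stood apart: its highest correlation with another array, over all probe sets, was 0.986, where each of the other arrays reached 0.992 or 0.993. The Paneth cell lysozyme Lyz1, with signals from 12.4 to 13.7, went with the crypt labels. The epithelial villin gene Vil1 had signals from 12.1 to 12.5. Enterocyte markers were bright too, with mean log2 signals of 11.9 to 12.6 over 14 genes. How many absorptive cells the samples held beside crypt cells was not tested.

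None of the 90 members passed the threshold between genotypes (limma's moderated test over all genes, Benjamini-Hochberg adjusted p under 0.05), where 1.08% of all genes did (0.702% lower and 0.374% higher in CSN8ΔIEC). At an unadjusted p under 0.05 there were 6 members, or 6.67%, against 15% of all genes. All 6 had lower signals in CSN8ΔIEC. The differences were small: the median over the members was −0.092, against −0.011 over all genes, and 82 of the 90 were under 0.25 in size. Their precision was also good for this number of arrays. The 95% confidence interval of the difference stayed within a 1.5-fold change in either direction for 82 members (91.1%, against 68% of all genes), and within a 2-fold change for 89. The exception to the 2-fold bound was Cox7a1, a subunit isoform of complex IV. The 1951 brightest genes held 59 of the members, and the share within 1.5-fold was not taken for genes of like brightness.

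**Figure D1:**
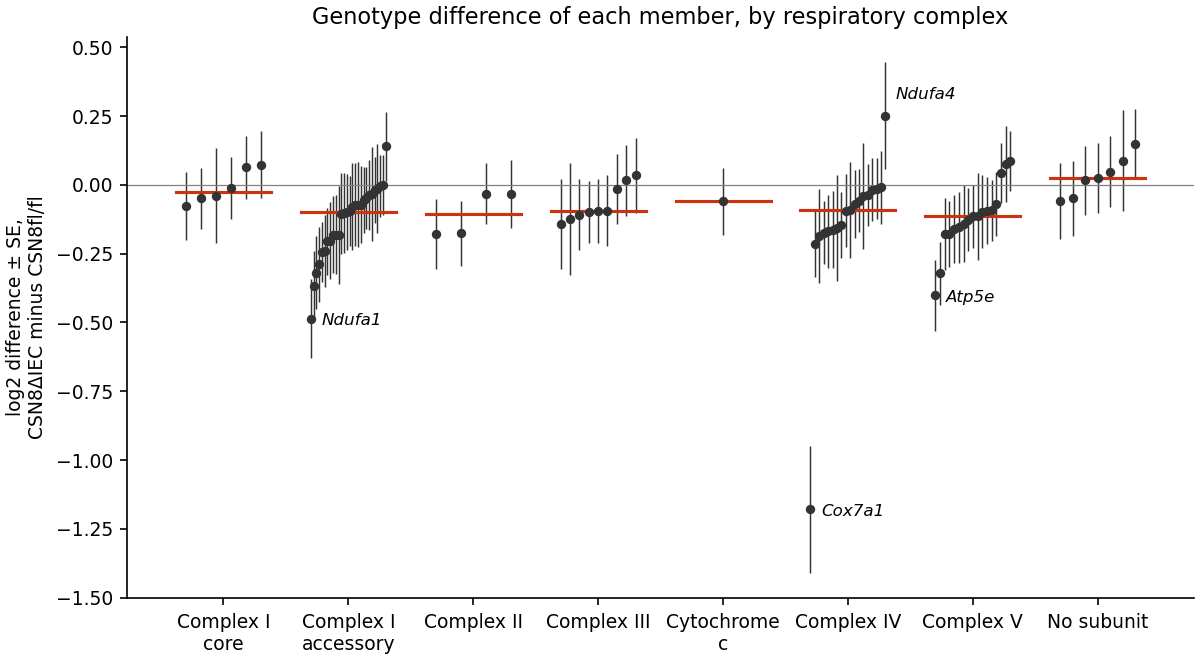
Log2 difference of each of the 90 members, CSN8ΔIEC minus CSN8fl/fl, with its standard error, by respiratory complex; red lines are the medians of each class, and "No subunit" holds the 7 assembly factors and paralogues. Most points lie just below 0, with class medians between −0.115 and 0.025, and Cox7a1 stands alone at −1.18.

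Cox7a1 encodes the form of the small subunit VIIa that is best known from heart and skeletal muscle. Its signal was 10.01, 10.44 and 10.81 in the CSN8fl/fl libraries and 9.45, 9.42 and 8.85 in the CSN8ΔIEC libraries. Every CSN8ΔIEC library thus lay below every CSN8fl/fl library. The mean was 10.42 ± 0.40 (SD, n = 3) in CSN8fl/fl and 9.24 ± 0.34 (SD, n = 3) in CSN8ΔIEC, a difference of −1.18 ± 0.23 (SE) or 2.26-fold, with a 95% confidence interval from −1.70 to −0.66. It narrowly missed the threshold over all genes (limma, adjusted p = 0.0543). The adjusted p ranged from 0.0312 to 0.182 over the 13 alternative analyses and passed in 3 of them: 0.0466 with dim genes filtered out, 0.0312 with an intensity trend in the variance model and 0.0326 without CSN8fl/fl replicate 1.

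The difference in Cox7a1 was −0.79 between the libraries labelled female and −1.96 between the 2 labelled male, but the interaction of genotype with labelled sex and age did not pass (limma, adjusted p = 0.421; 0 of all 19505 genes passed, and 10.1% had an unadjusted p under 0.05). Without CSN8fl/fl replicate 3, which had the highest Cox7a1 signal, the difference was −0.98, and it was −0.98 also without CSN8ΔIEC replicate 3, which had the lowest. Markers of several epithelial cell types were lower alongside, though not those of all. Of 10 stem cell markers 1 fell, 0 rose and 7 had differences above 0, and of 12 enteroendocrine cell markers 1 fell and 2 rose. The mean log2 signal of 14 measured tuft cell markers was 7.39, 7.53 and 8.84 in CSN8fl/fl and 6.26 to 6.35 in CSN8ΔIEC, where 5 of the 14 fell and 0 rose. That of 14 Paneth cell markers was 12.38 to 12.48 against 10.39 to 11.39, where 8 fell and 0 rose. That of 13 goblet cell markers was 10.94 to 11.24 against 10.42 to 10.58, where 5 fell and 0 rose. Of 14 enterocyte markers 0 passed and 11 had differences below 0, with mean log2 signals of 12.29, 12.30 and 12.64 against 12.06, 12.45 and 11.94. Their highest and lowest means lay in CSN8fl/fl replicate 3 and CSN8ΔIEC replicate 3, the libraries with the highest and lowest Cox7a1 signal. The part of these cell types, and of stromal and muscle cells, in the Cox7a1 result was not tested, and in RNA of whole crypts fewer cells of a type cannot be told apart from less RNA per cell. The mean log2 signal of 12 measured stromal and muscle markers was 5.56 to 5.67 in CSN8fl/fl and 5.66 to 5.92 in CSN8ΔIEC, with 1 that rose, the smooth muscle actin gene Acta2, and 0 that fell. Of these, 10 had differences above 0 and 2 below. The muscle desmin gene Des was the 1 with all CSN8ΔIEC values lower, at 4.61, 4.49 and 4.34 in CSN8fl/fl and 4.05, 3.91 and 4.01 in CSN8ΔIEC (difference −0.49 ± 0.12; limma, adjusted p = 0.113). The matrix gene Dcn reached 9.59 in CSN8ΔIEC replicate 3, the library with the lowest Cox7a1 signal, against 7.07 to 7.79 in the other libraries. Des and Dcn were named after their values were seen.

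The paralogues of Cox7a1 had smaller differences. Cox7a2, the form of subunit VIIa found in most tissues, had signals of 10.80, 11.21 and 10.91 in CSN8fl/fl and 10.82, 10.89 and 10.72 in CSN8ΔIEC. The genotypes overlapped, and the difference was −0.16 ± 0.14 (limma, adjusted p = 0.62), with a 95% confidence interval from −0.48 to 0.15 that does not reach the interval of Cox7a1. Cox7a2l encodes a factor described as joining complexes III and IV into supercomplexes, a role not examined in these mice. Its signal differed by 0.017 ± 0.13, with a 95% confidence interval from −0.27 to 0.30. The difference between the paralogues' differences was not itself tested.

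The promoters of the 3 paralogues are printed because Cox7a1 stood apart from its relatives, and that of Cox6a1, the widely expressed form of subunit VIa, as an example with several matches to motifs of respiratory gene regulators. With 3 matches to the ETS core, NRF1 or YY1 motifs it was level with Sdha and Ndufb4, and was taken as the first by name. Each is the 250 bases before the transcription start, 5′ to 3′, from RefSeq (GRCm38.p6), with capitals for matches on either strand to any of the 8 motifs named below. Cox7a1 lies at chr7:30183921-30184170 (plus strand), Cox7a2 at chr9:79759854-79760103 (minus strand), Cox7a2l at chr17:83514334-83514583 (minus strand) and Cox6a1 at chr5:115348959-115349208 (minus strand).
Cox7a1: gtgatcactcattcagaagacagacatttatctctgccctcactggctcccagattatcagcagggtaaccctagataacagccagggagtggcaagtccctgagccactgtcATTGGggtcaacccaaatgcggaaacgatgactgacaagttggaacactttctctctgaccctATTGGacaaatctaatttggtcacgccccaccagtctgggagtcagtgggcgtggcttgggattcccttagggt
Cox7a2: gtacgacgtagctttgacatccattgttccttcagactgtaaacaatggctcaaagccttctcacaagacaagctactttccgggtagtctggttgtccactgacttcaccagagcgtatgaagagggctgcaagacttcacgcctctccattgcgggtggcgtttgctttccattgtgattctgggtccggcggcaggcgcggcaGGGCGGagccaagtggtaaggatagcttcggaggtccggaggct
Cox7a2l: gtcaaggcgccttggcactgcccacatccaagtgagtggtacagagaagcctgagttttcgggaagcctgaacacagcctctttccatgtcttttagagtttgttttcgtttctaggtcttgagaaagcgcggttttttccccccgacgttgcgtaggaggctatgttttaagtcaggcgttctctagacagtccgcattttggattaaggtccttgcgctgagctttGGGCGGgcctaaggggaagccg
Cox6a1: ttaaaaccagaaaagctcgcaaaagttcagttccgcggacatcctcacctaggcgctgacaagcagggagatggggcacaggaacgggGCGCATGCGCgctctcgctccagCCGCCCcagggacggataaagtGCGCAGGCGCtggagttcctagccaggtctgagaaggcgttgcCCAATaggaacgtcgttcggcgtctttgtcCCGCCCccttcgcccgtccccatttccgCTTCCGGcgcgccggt
The Cox7a1 window held 2 CCAAT boxes, beginning 137 and 74 bases before the start, and no match to the other motifs. The Cox7a2 and Cox7a2l windows held 1 GC box each, at 44 and 22 bases before the start. The Cox6a1 window held 6 matches: 2 for NRF1, 2 GC boxes, 1 CCAAT box and 1 ETS core at 16 bases before the start. The Cox6a1 signal was 12.69, 12.86 and 12.86 in CSN8fl/fl and 12.78, 12.72 and 12.81 in CSN8ΔIEC, a difference of −0.038 ± 0.11. A match shows only that the letters occur in the window.

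Over the members, motifs of factors known as regulators of respiratory genes were more frequent than over all promoters. Windows of 300 bases (250 before and 50 after the start) were found for 74 of the 90 members, 79 windows in all because 5 genes had several, and were set beside all 32851 windows of the table. The ETS core CCGGAAG, bound by GABP, occurred on either strand in 20 of the 79 windows (25.3%) against 8.86% of all. The NRF1 motif occurred in 20 (25.3%) against 4.6%, and the YY1 motif AAGATGGC in 10 (12.7%) against 2.75%. The NRF1 motif as searched allowed any base at 1 position, so its matches were not limited to palindromes. TCAAGGTCA, bound by estrogen-related receptors, occurred in 2 (2.53%) against 0.423%. General promoter elements were nearer the share of all windows, with CCAAT in 33 (41.8%) against 37.4%, the GC box GGGCGG in 34 (43%) against 35.7% and TATAAA in 10 (12.7%) against 13.6%, and the E-box CAGCTG was found in 6 (7.59%) against 16.3%. The median GC content of the 250 upstream bases was 56.4% in the members' windows and 52.4% in all. By complex, the NRF1 motif occurred in 8 of 33 complex I windows, 2 of 3 complex II windows, 1 of 5 complex III windows, 1 of 13 complex IV windows and 6 of 18 complex V windows. In the same order, the ETS core occurred in 4, 2, 2, 3 and 6 of these windows and the YY1 motif in 7, 0, 0, 0 and 3. Sdhaf1, Sdhaf2 and Sdhaf3, which are no subunits, also had the ETS core, and Sdhaf3 and Sdhaf4 the NRF1 motif. The motifs can overlap one another, and these shares are a description with no test.

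**Figure D2:**
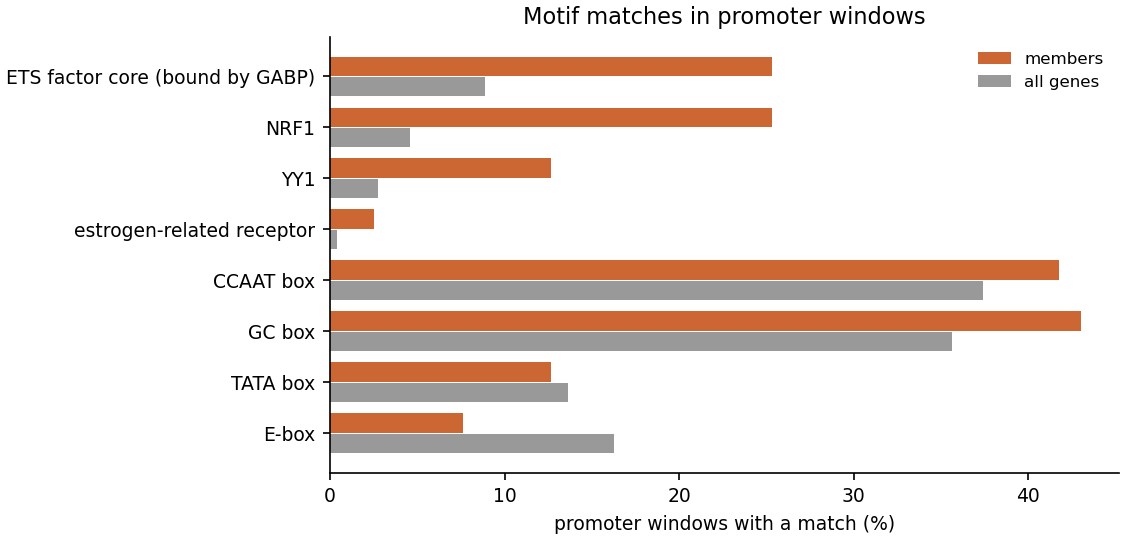
Share of promoter windows, in percent, with at least 1 match to each motif, for the 79 windows of the members and the 32851 windows of all genes. The ETS core, NRF1 and YY1 bars are longer for the members (25.3%, 25.3% and 12.7%) than for all genes (8.86%, 4.6% and 2.75%), while the TATA box bars are of similar length (12.7% and 13.6%).

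Complex I showed small differences, most of them in its accessory subunits. Of the 6 core subunits, which carry the flavin and iron-sulfur clusters or help form the ubiquinone site, 4 had differences below 0 and 2 above, between −0.077 for Ndufv1 and 0.073 for Ndufv2, with a median of −0.025 that turned to 0.0067 when arrays were centred on their medians. Ndufv1, which holds the NADH-binding site, had signals of 11.43, 11.77 and 11.60 in CSN8fl/fl and 11.52, 11.52 and 11.53 in CSN8ΔIEC, so that all 3 CSN8ΔIEC libraries lay within the CSN8fl/fl range. Ndufs1, an iron-sulfur subunit, differed by 0.063 ± 0.12. Of the 28 accessory subunits 27 had a difference below 0 (median −0.098), where 51.8% of all genes did. For 6 of them all CSN8ΔIEC values lay below all CSN8fl/fl values, as they did for 11.7% of all genes.

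The accessory subunit with the lowest difference was Ndufa1, a small membrane-anchored subunit needed for complex I assembly. Its signal was 8.49, 8.87 and 8.81 in CSN8fl/fl and 8.29, 8.34 and 8.07 in CSN8ΔIEC. The genotypes did not overlap. The difference was −0.49 ± 0.14, or 1.40-fold, and missed the threshold (limma, adjusted p = 0.164). Ndufa3, another small accessory subunit, had signals of 11.62, 11.90 and 11.83 against 11.51, 11.31 and 11.44, again without overlap, and differed by −0.37 ± 0.13 (limma, adjusted p = 0.224). Ndufa2 differed by −0.32 ± 0.13 and Ndufb8 by −0.24 ± 0.11, and neither passed (limma, adjusted p = 0.307 and 0.339). The other accessory subunits without overlap were Ndufa11 and Ndufb7, at −0.29 and −0.21. The accessory subunit above 0 was Ndufc2, at 0.14 ± 0.13. Ndufb4 and its paralogue Ndufb4b differed by −0.099 and −0.059, and signal shared between these related sequences was not separated.

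Complex II, which is also the succinate dehydrogenase of the citrate cycle, had 4 of 4 differences below 0, from −0.18 to −0.032, with a median of −0.10. The flavoprotein gene Sdha had signals of 10.33, 10.47 and 10.40 in CSN8fl/fl and 10.34, 10.41 and 10.35 in CSN8ΔIEC, with each CSN8ΔIEC value inside the CSN8fl/fl range. The iron-sulfur subunit gene Sdhb had 11.65, 11.81 and 11.70 against 11.58, 11.63 and 11.42, without overlap, at a difference of −0.18 ± 0.12 (limma, adjusted p = 0.519). The membrane anchors Sdhc and Sdhd differed by −0.032 and −0.18. The assembly factors Sdhaf1 to Sdhaf4 differed by −0.049, 0.025, 0.048 and 0.15, with adjusted p-values from limma of at least 0.613.

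Complex III and cytochrome c showed small differences in either direction. Of 9 complex III subunits 7 had differences below 0, all 9 lay between −0.14 and 0.034, the genotypes overlapped in every one, and the median was −0.096. The hinge protein gene Uqcrh had signals of 11.80, 11.98 and 11.94 in CSN8fl/fl and 11.86, 11.76 and 11.80 in CSN8ΔIEC, a difference of −0.10 ± 0.11 that had the smallest p of the complex (limma, adjusted p = 0.716). Uqcr10, a small subunit, differed by −0.14 ± 0.16, and Cyc1, the cytochrome c1 gene, by 0.034 ± 0.14. Cycs, the somatic cytochrome c gene whose product also takes part in apoptosis, had 12.62, 12.70 and 12.73 against 12.57, 12.79 and 12.51. Its difference was −0.059 ± 0.12, with CSN8ΔIEC replicate 2 the highest of the 6 libraries.

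In complex IV, 17 of the 18 genes had differences below 0 (94.4%, against 51.8% of all genes), with a median of −0.092. For 2 of them, Cox7a1 and Cox5b, all CSN8ΔIEC values lay below all CSN8fl/fl values. That share of 11.1% was near the 11.7% of all genes. None of the paralogous subunits of the complex passed the threshold, Cox7a1 included. Cox4i1, the usual form of subunit IV, had signals of 10.93, 11.30 and 11.09 in CSN8fl/fl and 11.04, 10.93 and 10.84 in CSN8ΔIEC (difference −0.17 ± 0.13), and Cox4i2, a form induced by low oxygen, differed by −0.071 ± 0.12. The muscle form Cox6a2 differed by −0.16 ± 0.19. Cox6b1 differed by −0.21 ± 0.12 and its testis form Cox6b2 by −0.19 ± 0.17. Cox7b and Cox7b2 differed by −0.057 and −0.0091, and Cox8a, Cox8b and Cox8c by −0.17, −0.092 and −0.041. The probe sets of Cox4i2, Cox6a2, Cox6b2, Cox7b2, Cox8b, Cox8c, Ndufa4l2 and Sdhaf4 were the 8 members dimmer than the median gene. The Cox7a1 probe set was brighter than 87.9% of genes, whereas the muscle forms Cox6a2 and Cox8b were brighter than 47.6% and 20.9%; signals of different probe sets do not give the order of RNA levels.

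Ndufa4, first named as a complex I subunit and now counted with complex IV, had the highest difference of all members, and 1 library set it. Its signal was 11.94, 12.08 and 11.32 in CSN8fl/fl and 12.13, 12.03 and 11.93 in CSN8ΔIEC. The low value of CSN8fl/fl replicate 3 was the lowest of the 6 libraries. With all libraries the difference was 0.25 ± 0.19 (limma, adjusted p = 0.583), and without that library it was 0.018. Its paralogue Ndufa4l2, a hypoxia-induced gene, had its lowest signal, 5.00, in the same library, and differed by 0.088 ± 0.18.

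**Figure D3:**
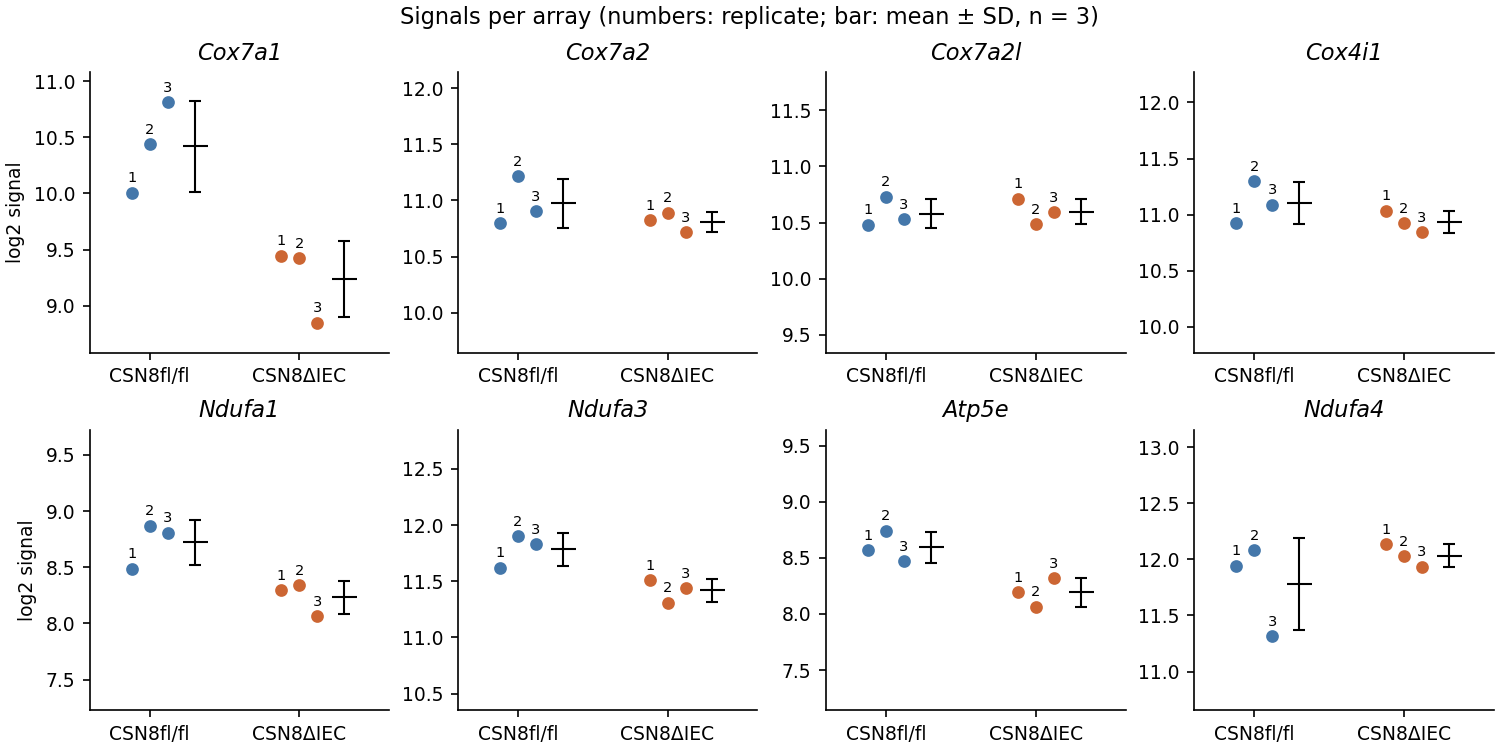
Log2 signal of 8 named genes in each array, with replicate numbers beside the points and the mean ± SD (n = 3) of each genotype as a bar; all panels span the same range. Cox7a1 lies at 10.01 to 10.81 in CSN8fl/fl and at 8.85 to 9.45 in CSN8ΔIEC without overlap, Cox7a2, Cox7a2l and Cox4i1 overlap, and Ndufa4 is low only in CSN8fl/fl replicate 3.

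Complex V had 14 of 17 differences below 0, with a median of −0.115, and 3 genes with all CSN8ΔIEC values lower and 1 with all higher, which 11.7% and 10.7% of all genes showed. Atp5e, the epsilon subunit of the central stalk, had signals of 8.57, 8.74 and 8.47 in CSN8fl/fl and 8.19, 8.06 and 8.32 in CSN8ΔIEC. The genotypes did not overlap, and the difference of −0.40 ± 0.13, or 1.32-fold, missed the threshold (limma, adjusted p = 0.195). Atp5o, the subunit that ties the peripheral stalk to the catalytic head, had 11.85, 12.03 and 11.90 against 11.67, 11.62 and 11.54 and differed by −0.32 ± 0.12 (limma, adjusted p = 0.24). The catalytic beta subunit gene Atp5b was the member with all CSN8ΔIEC values higher, at 13.23, 13.22 and 13.21 against 13.10, 13.20 and 13.09, but by 0.087 ± 0.11 (limma, adjusted p = 0.744). Atp5g1, Atp5g2 and Atp5g3, which encode the same membrane ring subunit with different targeting sequences, differed by −0.11, 0.077 and −0.18.

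Across all complexes, the direction was more uniform than the size. Differences were below 0 for 76 of the 90 members (84.4%, against 51.8% of all genes), or 74 of the 83 subunits. The count of 76 was 70 with the quantile normalisation repeated and 67 with each array centred on its median. The median difference over all genes was then 0.0046 and 0.021. As deposited, the array medians over all probe sets were 6.75, 6.76 and 6.75 in CSN8fl/fl and 6.70, 6.72 and 6.74 in CSN8ΔIEC. The 1951 brightest genes, which held 59 of the members, had 50.4% of differences below 0. All CSN8ΔIEC values lay below all CSN8fl/fl values in 12 members (13.3%, against 11.7% of all genes) and above them in 1 (1.11%, against 10.7%). The share of members without overlap on the lower side was therefore near that of all genes.

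The downward lean rested largely on 1 library, CSN8fl/fl replicate 2. For each gene, the deviation of an array from that gene's mean over the 6 arrays was taken, and the median over the members was −0.049, 0.18 and −0.0051 in the CSN8fl/fl arrays, replicates 1 to 3, and 0.0011, −0.021 and −0.10 in the CSN8ΔIEC arrays. CSN8fl/fl replicate 2 was thus high and CSN8ΔIEC replicate 3 low, while the other 4 arrays lay close together and CSN8fl/fl replicate 1 lay below 2 of the 3 CSN8ΔIEC arrays. CSN8fl/fl replicate 2 had the highest signal of the 6 arrays for 69 of the 90 members (76.7%, against 19.4% of all genes), and CSN8ΔIEC replicate 3 had the lowest for 39 (43.3%, against 17.4%). Without CSN8fl/fl replicate 2, the median difference of the members was −0.0061 and 50 of the 90 were below 0. Without CSN8ΔIEC replicate 3 these were −0.062 and 63, and with each of the other 4 libraries left out in turn the median lay between −0.10 and −0.14.

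The high signal of CSN8fl/fl replicate 2 ran through every complex. Its median deviation was 0.13 in the complex I core, 0.26 in the complex I accessory subunits, 0.13 in complex II, 0.19 in complex III, 0.16 in complex IV and 0.20 in complex V. Without it the median difference was 0.063 for the complex I core, −0.0011 for its accessory subunits, −0.073 for complex II, 0.029 for complex III, −0.030 for complex IV and −0.058 for complex V. In the same array the 1951 brightest genes had a median deviation of 0.025, all genes 0.022 and 63 cytosolic ribosomal protein genes 0.073. These last sets were chosen after the members' values were seen. The related lists described below varied in CSN8fl/fl replicate 2. Median deviations were 0.13 for complex V assembly factors, 0.11 for those of complex IV and 0.10 for mitochondrial ribosomal proteins. They were 0.072 for the citrate cycle list, 0.064 for regulators, 0.059 for glycolysis and 0.042 for complex I assembly factors. The lists of electron entry, import genes and complex III assembly factors had −0.0055, −0.015 and −0.034. The spread between replicates was larger in CSN8fl/fl than in CSN8ΔIEC for 74 members (82.2%, against 62.3% of all genes), with median SDs of 0.15 and 0.10.

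**Figure D4:**
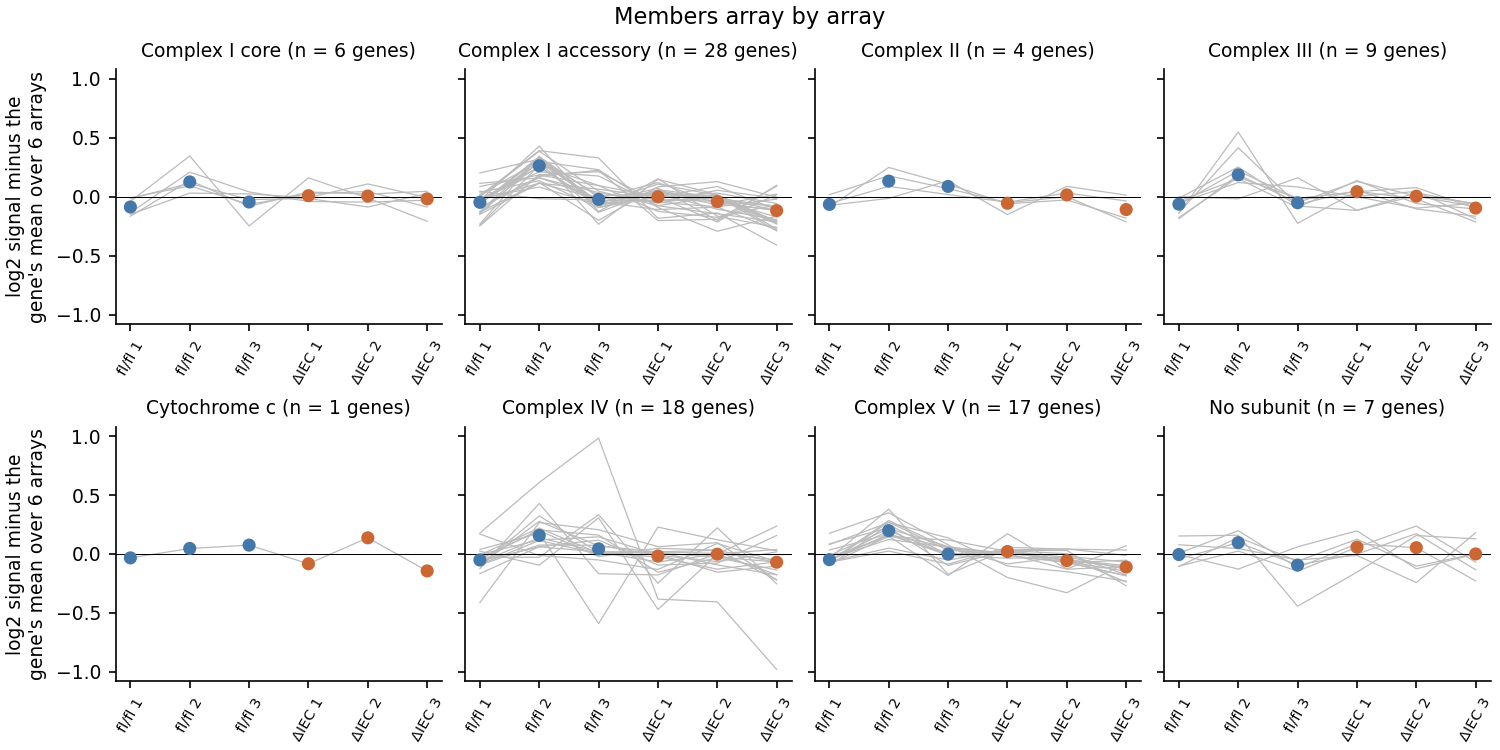
Log2 signal of each member minus its mean over the 6 arrays (grey lines, 1 per gene), by complex and array, with the median over the genes as points (blue, CSN8fl/fl; orange, CSN8ΔIEC). CSN8fl/fl replicate 2 is the highest median point in complexes I, II, III, IV and V (0.13 to 0.26), and the widest line, in complex IV, is Cox7a1.

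Labelled sex and age, which change together and cannot be told apart, were compared in a model that also held genotype. None of the members passed the threshold between the arrays labelled male at 10 weeks and those labelled female at 16 weeks (limma, smallest adjusted p = 0.778). Of all genes 0.0154% passed. An unadjusted p under 0.05 (limma) was found for 2 members, against 6.16% of all genes. These 2, named after their values were seen, were Ndufa4 at −0.42 and Cox6a2 at 0.41. The median over the members was −0.082, with 68 of 90 below 0 (75.6%, against 52.1% of all genes). For the interaction with genotype 0 members passed and 2 had an unadjusted p under 0.05, Cox7a1 and Ndufa4l2.

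Genes that assemble, supply or regulate the complexes did not pass either, and several of their lists leaned the other way. Of 17 complex I assembly factors 15 had differences above 0 (median 0.22), and of 22 import and chaperone genes 19 did (median 0.23), while 0 genes of either list passed in either direction. Of 76 mitochondrial ribosomal proteins, which translate the subunits encoded by mitochondrial DNA, 0 passed and 68 had differences above 0 (median 0.13). In that order, differences below 0 made up 11.8%, 13.6% and 10.5% of the lists, against 51.8% of all genes. All CSN8ΔIEC values were higher for 23.5%, 50% and 15.8%, against 10.7% of all genes. An unadjusted p under 0.05 (limma) was found for 5.88%, 36.4% and 6.58%, against 15%. These lists were low in CSN8fl/fl replicate 3, with median deviations of −0.30, −0.30 and −0.29, and without that library their medians were 0.11, 0.14 and 0.018. The members' own deviation in that library was −0.0051. Proliferation genes were low there as well, with a median deviation of −0.72 over 19 genes. Their median deviations were 0.0093 and −0.031 in CSN8fl/fl replicates 1 and 2, and 0.25 to 0.28 in CSN8ΔIEC. All 19 had differences above 0 (median 0.45), and 0 passed. In 15 of them all CSN8ΔIEC values were higher (78.9%, against 10.7% of all genes). The part of proliferation genes in these results was not tested.

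Single genes of these lists came closer to the threshold than most members. Mrpl19, a protein of the large mitochondrial ribosomal subunit, had signals of 9.36, 9.06 and 8.91 in CSN8fl/fl and 9.64, 9.60 and 9.81 in CSN8ΔIEC, without overlap (difference 0.57 ± 0.14; limma, adjusted p = 0.114). Tomm20, a receptor of the outer membrane import pore, differed by 0.53 ± 0.14, the matrix chaperone Hspa9 by 0.48 ± 0.14 and the complex III assembly factor Bcs1l, which inserts the iron-sulfur protein, by 0.54 ± 0.15 (limma, adjusted p = 0.121, 0.151 and 0.135). Tmem70, a complex V assembly factor, differed by 0.43 ± 0.14 and Ndufaf4, of complex I assembly, by 0.28 ± 0.12. The 20 complex IV assembly factors had a median of 0.0047 with 0 that passed, the 6 of complex III 0.099 and the 4 of complex V 0.060, also with 0 that passed.

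Among 18 regulators and genes of mitochondrial DNA expression 0 passed and 15 had differences above 0 (median 0.13). The lowest was Ppargc1a, which encodes PGC-1α, a coactivator of respiratory genes. Its signal was 10.47, 10.68 and 11.25 in CSN8fl/fl and 10.06, 10.19 and 10.09 in CSN8ΔIEC. The genotypes did not overlap, yet the difference of −0.69 ± 0.19 did not pass (limma, adjusted p = 0.145), and it was −0.46 without CSN8fl/fl replicate 3.

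The substrate side of respiration was mixed. Of 16 genes of the citrate cycle and pyruvate dehydrogenase 0 passed, with 8 differences below 0 and 8 above and a median of 0.0042. Citrate synthase, Cs, differed by −0.31 ± 0.13, and fumarase, Fh1, by 0.32 ± 0.13. Of 17 genes of other electron entry routes and ubiquinone synthesis 0 passed (median 0.060). Of 15 glycolysis genes 0 passed and 8 were below 0 (median −0.038), but all CSN8ΔIEC values of both hexokinases lay above all CSN8fl/fl values. Hk1 had signals of 6.77, 6.6 and 7.61 in CSN8fl/fl and 8.72, 8.03 and 8.49 in CSN8ΔIEC, a difference of 1.42 ± 0.27 or 2.67-fold that narrowly missed the threshold (limma, adjusted p = 0.051). It passed in 6 of the 13 alternative analyses (adjusted p from 0.0197 to 0.201), among them without CSN8fl/fl replicate 3 and with labelled sex and age as a covariate. Hk2 differed by 0.63 ± 0.14 (limma, adjusted p = 0.0752), and passed in 1 alternative analysis, with an intensity trend (adjusted p = 0.0446).

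**Figure D5:**
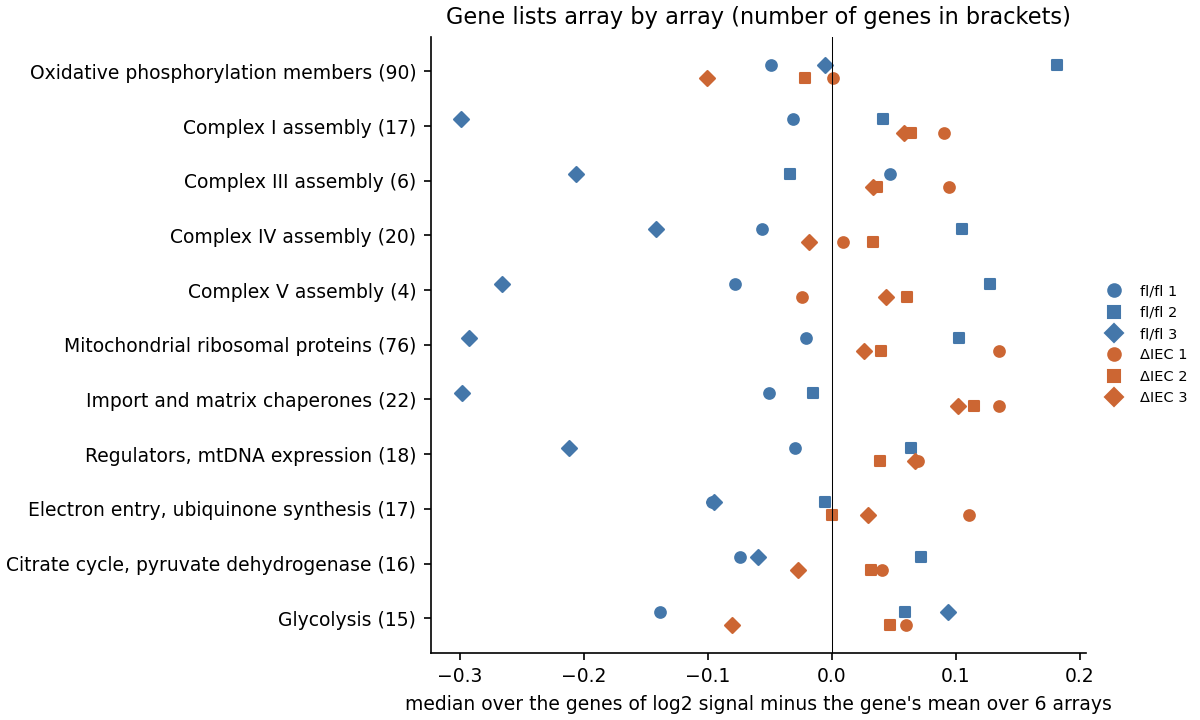
Median over the genes of each list of the log2 signal minus the gene's mean over 6 arrays, with 1 point per array (blue, CSN8fl/fl; orange, CSN8ΔIEC; circle, square and diamond for replicates 1 to 3). The oxidative phosphorylation members have CSN8fl/fl replicate 2 far to the right (0.18), whereas assembly factors of complex I, mitochondrial ribosomal proteins and import genes have CSN8fl/fl replicate 3 far to the left (−0.30 to −0.29).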

How the data were processed

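The authors deposited log2 signals per probe set. The submitters' processing notes name RMA, which corrects background, quantile-normalises arrays and summarises probes, and Partek 6.6, with settings and genome build not given in the sources used here. Of 22206 probe sets, 19572 had 1 gene symbol in the platform annotation, 0 had several and 2634 are unnamed here. Where a gene had several probe sets (55 genes) the brightest was kept, which left 19505 genes. Arrays have no read depth; their number limits the precision.

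Genotypes were compared with limma 3.58.1 (lmFit, eBayes, two-sided, 3 samples against 3; R 4.3.3), checked on simulated data. Benjamini-Hochberg adjustment ran over all genes. Values are log2 differences ± SE. Members and gene lists were chosen with earlier results of these data known. Named genes were, per complex, the 4 with the smallest p, the 3 highest and 3 lowest differences, paralogous subunits, 3 genes per related list and Cops8; others were named after their values were seen. Sequences came from RefSeq (GRCm38.p6). Alternatives changed the normalisation, the filter on dim genes (above the 25th percentile of signals in at least 3 arrays), the probe set rule, the variance model, the covariates and the samples.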

Additional observations from a re-analysis of the deposited data

How the results depend on the processing

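Replicate numbers are shared by the genotypes, but same-numbered samples did not deviate together (correlations of deviations 0.12, −0.024 and 0.038 for numbers 1 to 3), so the samples were not treated as paired; with the replicate block 0 members and 202 of all genes passed, and 1 glycolysis gene, Hk1. The count of 0 members became 1, Cox7a1, with dim genes filtered out (88 members tested), with an intensity trend and, among the analyses that left out a library, without CSN8fl/fl replicate 1 (range 0 to 1). The count of 210 genes over the whole array was 324 with the trend and 41 to 228 without 1 library. Glycolysis genes that passed went from 0 to 1 with median centring, the dim filter, labelled sex and age as a covariate or the block, to 2 with the trend, and 0 to 1 without 1 library. With 1 library left out, the median difference lay between −0.061 and 0.063 in the complex I core, −0.14 and 0.029 in complex III and −0.18 and −0.030 in complex IV. Repeating the quantile normalisation turned Cycs to 0.0012, Cox6a1 to 0.028 and Cox7b2 to 0.017, and median centring turned Cox7b2 to 0.023. Differences near 0 also changed sign without 1 library, ranging from −0.042 to 0.092 for Cox7a2l, −0.16 to 0.0086 for Ndufv1, −0.070 to 0.0028 for Sdha, −0.085 to 0.035 for Sdhc, −0.25 to 0.029 for Uqcr10, −0.13 to 0.041 for Ndufb4b, −0.039 to 0.12 for Sdhaf3, −0.095 to 0.048 for Cox7b2, −0.20 to 0.10 for Cox8b, −0.26 to 0.083 for Cox8c, −0.31 to 0.039 for Cox6a2, −0.23 to 0.048 for Atp5g1, −0.11 to 0.19 for Ndufa4l2 and −0.31 to 0.050 for Fmc1. None of these genes passed in any analysis. The cause of these changes was not tested. Of 960 alternative values of named genes, 922 kept direction and side of the threshold.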
